A study of Bos taurus with 12 samples.

Results

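In the liver of newborn heifer calves 10 genes of iron handling were followed, of the 30336 genes in the count files. They are HAMP, the gene of the hormone hepcidin, with BMP6, HJV, HFE and TFR2, which set its production, and TFRC, TF, SLC40A1, FTH1 and FTL, which take up, carry, export and store iron. The rule lists genes by their roles and uses no measured value, but the list was drawn up with earlier results of these libraries known. The tissue was a puncture biopsy of the liver, taken at 4 d of age from Holstein heifer calves. The dams of the CON calves received a control close-up diet with no added methionine for the last 28 d before calving. The dams of the MET calves received that diet with ethyl-cellulose rumen-protected methionine over the same period, and all calves were fed and managed alike after birth. The question was whether the maternal diet was accompanied by a different abundance of mRNA in the calf. The biopsies were sequenced as 12 libraries, 6 per diet, and each library holds the RNA of 1 calf per its label.

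Hepcidin is a small peptide that hepatocytes secrete into blood. It binds ferroportin, the iron exporter encoded by SLC40A1, and has it degraded, so that iron stays inside macrophages, enterocytes and hepatocytes. In hepatocytes the transcription of HAMP is driven by BMP6, which comes mainly from the sinusoidal endothelial cells of the liver, through BMP receptors and SMAD proteins with hemojuvelin (HJV) as co-receptor. HFE and transferrin receptor 2 (TFR2) take part in sensing iron-laden transferrin, and interleukin 6 acts on the same promoter through STAT3 during inflammation. The iron regulatory proteins bind the mRNA of TFRC, which they stabilize, and the mRNA of both ferritin chains and of ferroportin, whose translation they hold back. Read counts show mRNA abundance and not that translation.

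Between CON replicates 1 and 4 the chi-square per gene was 1.33 and between MET replicates 1 and 3 it was 1.24, where counting noise alone gives about 1. The other 64 pairs of libraries differed by 25.1 to 132. The labels give these libraries to different calves. Each of the 2 pairs was therefore counted as 1 sample with its reads summed, written CON 1+4 and MET 1+3, which left 5 samples per diet. Results over the 12 libraries as deposited are given beside those over the 10 samples where a result rests on them. Depth was 8277789 to 10397604 counted reads per library, and the 3 reads used as a floor equalled 0.289 to 0.362 CPM, the reads of a gene scaled to the same total in each library. The first index was the same in all CON libraries and differed from that of all MET libraries, and so the effects of index and diet cannot be told apart.

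All 10 genes passed the filter on low counts. None of the 10 was called different between the diets at a false discovery rate (FDR) of 0.10 by the quasi-likelihood test of edgeR, adjusted over all genes by the method of Benjamini and Hochberg. The same was true of every one of the 13242 genes tested over the 10 samples (0% called). At an unadjusted p of 0.05, 3 of the 10 genes passed (HAMP, HFE and TFRC), against 2165 of all genes tested (16.3%). Over the 12 libraries, 583 of 13212 genes were called (4.41%), and none of the 10 iron genes was among them. DESeq2, run as an alternative, called 639 of the 13242 genes tested over the 10 samples, among them 2 of the 10 iron genes, HAMP and TFRC. In none of the 10 genes did the 5 MET samples lie wholly apart from the 5 CON samples, as they did in 492 of the 13242 genes tested (3.72%). Leaving out the sample that made them overlap separated TFRC (without CON 1+4, where 5.95% of all genes did not overlap) and HAMP and HFE (without MET 1+3, where 6.87% did not), which that choice of sample fixes. The fold changes are given as log2 of MET over CON with 1 standard error (SE). Of the 10, 4 were above 0 and 6 below, with a median of -0.08, beside a median of -0.003 over all genes tested.

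HAMP (Entrez gene 512301, chromosome 18, 46177091 to 46178538 of UMD 3.1.1, forward strand, 416 exonic bases) was the most variable of the 10 genes. In the CON samples HAMP stood at 6.66 CPM in CON 1+4, 7.78 in CON 2, 0.228 in CON 3, 0.104 in CON 5 and 0.622 in CON 6. In the MET samples HAMP stood at 0.234 CPM in MET 1+3, 146 in MET 2, 30.9 in MET 4, 19.0 in MET 5 and 59.6 in MET 6. In 4 of the 5 MET samples HAMP lay above the highest CON sample, and in MET 1+3 it was among the lowest.

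The low values of HAMP were a handful of reads. CON 3 had 2 HAMP reads, CON 5 had 1, CON 6 had 6 and MET 1+3 had 5, whereas MET 2 had 1499. The exact 95% Poisson interval of CON 5 ran from 0.00264 to 0.580 CPM and that of MET 1+3 from 0.0760 to 0.546 CPM, so that these samples cannot be ordered among themselves. These intervals hold counting error alone, because without molecular identifiers a read need not be a separate molecule. Even against CON 2, the highest CON sample, MET 2 held 18.8 times as much HAMP mRNA (exact 95% interval 14.6 to 24.6).

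Mean HAMP was 3.08 ± 3.81 CPM (SD, n = 5) among the CON samples and 51.2 ± 57.3 CPM (SD, n = 5) among the MET samples. The log2 fold change was 4.00 (SE 1.19), with an FDR of 0.181 in edgeR's test over the 10 samples. Over the 12 libraries the log2 fold change was 3.56 with an FDR of 0.120. The exact two-sided permutation test of HAMP over all arrangements of the 10 samples gave p = 0.0556, where 0.00794 is the smallest value it can give. After adjustment over all genes tested the exact p was 0.3302. DESeq2 gave a log2 fold change of 4.05 with an adjusted p of 0.0677, past the threshold of 0.10, whereas limma's voom gave 3.43 (SE 2.73) with an adjusted p of 0.562. Without MET 1+3, the FDR of HAMP was 0.102. Without MET 2, the log2 fold change was 3.09 with an FDR of 0.273.

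The coefficient of variation of HAMP over the 10 samples was 169%, rank 4 of the 13242 genes tested, whose median was 21.6%. Of the other 9 members, TFRC followed with 61.4%, HFE with 40.5% and HJV with 35.3%. BMP6, TFR2, TF and SLC40A1 lay between 19.1% and 22.4%, close to the median of all genes, and the ferritin chains lay below it, FTH1 at 15.1% and FTL at 13.8%. These values include the difference between the diets. Within a diet the coefficient was 124% in CON and 112% in MET for HAMP, the highest of the 10 genes in both, 40.8% and 45.9% for TFRC, 28.2% and 38.4% for HFE and 29.4% and 36.7% for HJV, beside medians of 19.0% and 19.7% over all genes tested.

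**Figure D1:**
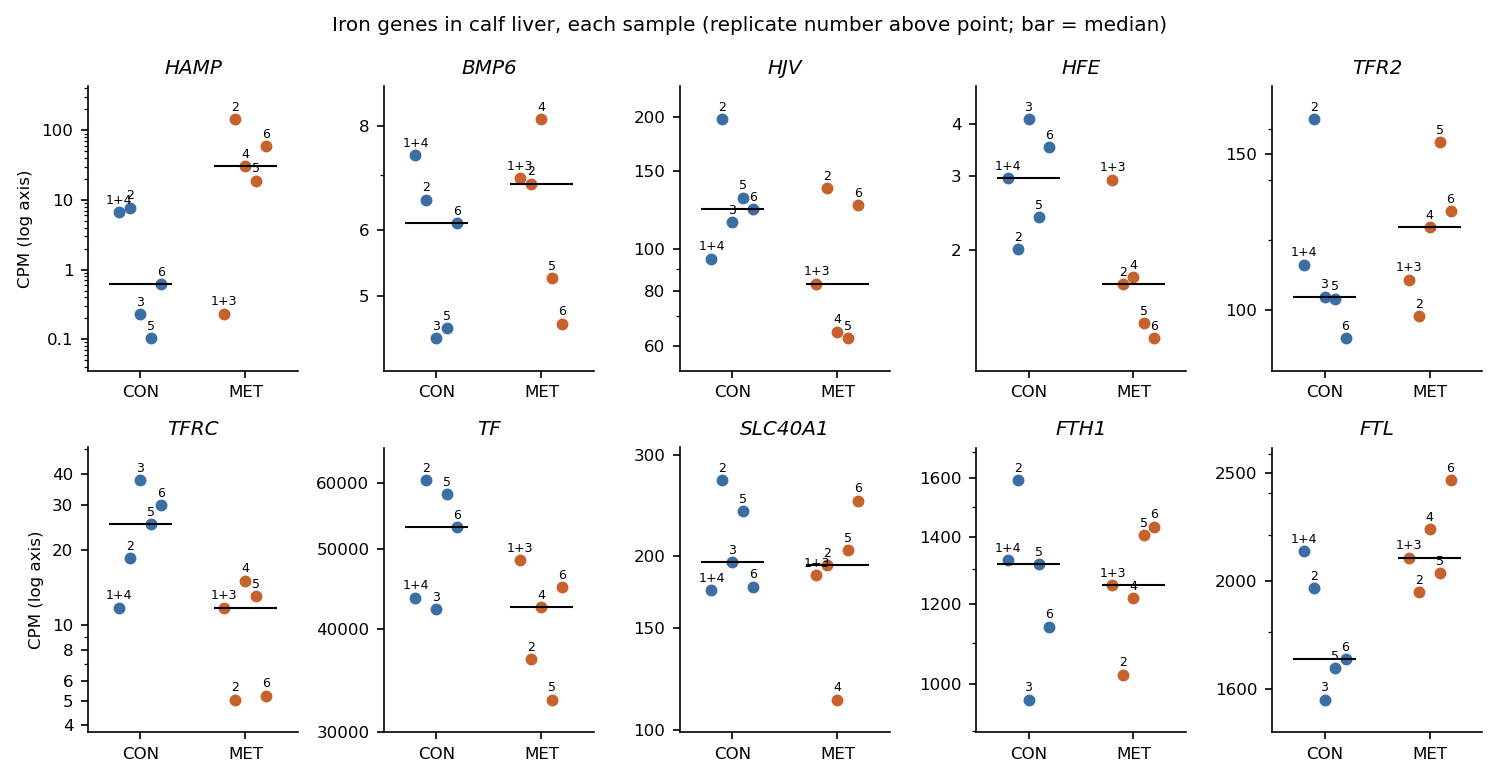
Scaled counts (CPM, log axis, own scale per panel) of the 10 iron genes in each of the 5 CON and 5 MET samples, with the replicate number above each point and a bar at the median. HAMP spans from 0.104 to 146 CPM with 4 of 5 MET samples above all CON samples, and in every panel the diets overlap.

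BMP6 (Entrez gene 617566, chromosome 23, 47353877 to 47511056, reverse strand), the ligand upstream of HAMP, did not show that spread. It was at 7.39 CPM in CON 1+4, 6.53 in CON 2, 4.45 in CON 3, 4.58 in CON 5 and 6.11 in CON 6. The MET samples held 6.93 CPM of BMP6 in MET 1+3, 6.83 in MET 2, 8.17 in MET 4, 5.25 in MET 5 and 4.63 in MET 6. The diets overlapped over nearly their whole range. Of the samples richest in HAMP within each diet, CON 1+4 and CON 2 were also the highest of CON in BMP6, whereas MET 2 was in the middle of the MET values and MET 6 lowest. The log2 fold change of BMP6 was 0.12 (SE 0.20), with an FDR of 0.7999 in edgeR's test.

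HJV (Entrez gene 100335368, chromosome 3, 21470682 to 21475086, forward strand), the BMP co-receptor of hepatocytes and muscle, had a lower mean in MET. It measured 94.8 CPM in CON 1+4, 198 in CON 2, 115 in CON 3, 131 in CON 5 and 123 in CON 6. Among MET samples it measured 83.1 CPM in MET 1+3, 137 in MET 2, 64.6 in MET 4, 62.5 in MET 5 and 126 in MET 6. HJV of 3 MET samples lay below every CON sample, and that of MET 2 and MET 6 lay inside the CON range. Its log2 fold change was -0.48 (SE 0.26) with an edgeR FDR of 0.375. When samples were left out it ranged from -0.29 without CON 2 to -0.65 without MET 2.

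HFE (Entrez gene 497622, chromosome 23, 31614238 to 31621350, forward strand), a partner of the transferrin receptors whose loss causes hereditary hemochromatosis in humans, was weakly expressed. HFE reads numbered 12 to 63 per sample. Its level was 2.97 CPM in CON 1+4, 2.01 in CON 2, 4.11 in CON 3, 2.39 in CON 5 and 3.52 in CON 6. It was 2.95 CPM in MET 1+3, 1.66 in MET 2, 1.73 in MET 4, 1.34 in MET 5 and 1.24 in MET 6. HFE of 4 of the 5 MET samples fell below the lowest CON sample, and MET 1+3 was again the one that did not. The CON mean was 3.001 ± 0.846 CPM (SD, n = 5) and the MET mean was 1.78 ± 0.684 CPM (SD, n = 5). HFE had a log2 fold change of -0.71 (SE 0.29), an unadjusted p of 0.0316 and an FDR of 0.267 in edgeR's test. The exact permutation test gave p = 0.0397. With 12 reads in MET 6, the exact 95% Poisson interval of that sample ran from 0.638 to 2.16 CPM, which reaches the lowest CON value.

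TFR2 (Entrez gene 617916, chromosome 25, 36470134 to 36482531, forward strand), the iron sensor of hepatocytes, was far more abundant than HFE and differed little between the diets. Its values were 113 CPM in CON 1+4, 164 in CON 2, 104 in CON 3 and in CON 5 and 93.1 in CON 6. They were 108 CPM in MET 1+3, 98.5 in MET 2, 124 in MET 4, 154 in MET 5 and 129 in MET 6. No MET sample lay outside the CON range. The log2 fold change of TFR2 was 0.09 (SE 0.17), with an edgeR FDR of 0.830.

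TFRC (Entrez gene 504698, chromosome 1, 71259942 to 71287252, reverse strand), the receptor by which most cells take up transferrin iron, was the most clearly lower of the 10 genes in MET. TFRC stood at 11.7 CPM in CON 1+4, 18.5 in CON 2, 37.7 in CON 3, 25.2 in CON 5 and 29.95 in CON 6. It stood at 11.7 CPM in MET 1+3, 5.07 in MET 2, 15.1 in MET 4, 13.1 in MET 5 and 5.25 in MET 6. CON 1+4 was the one CON sample inside the MET range, and the other CON samples began at 18.5 CPM, above the highest MET value of 15.1 CPM.

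CON calves averaged 24.6 ± 10.0 CPM of TFRC (SD, n = 5), whereas MET calves averaged 10.0 ± 4.61 CPM (SD, n = 5). Its log2 fold change was -1.29 (SE 0.36), with an unadjusted p of 0.00375 and an FDR of 0.176 in edgeR's test. Over the 12 libraries the log2 fold change was -1.12 with an FDR of 0.102. DESeq2 gave -1.29 with an adjusted p of 0.0274, past the threshold. The exact permutation p of TFRC was 0.0238 over the 10 samples, and 0.255 after adjustment over all genes tested. Leaving out each sample in turn kept the log2 fold change between -1.47 and -1.08.

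TF (Entrez gene 280705, chromosome 1, 136683311 to 136722309, reverse strand) encodes transferrin, the iron carrier of plasma that hepatocytes secrete. TF ranked 2 among all genes tested by mean CPM and took 4.63% of all counted reads, with 2.94% to 6.00% per library. Its values were 43650 CPM in CON 1+4, 60516 in CON 2, 42274 in CON 3, 58184 in CON 5 and 53148 in CON 6. In MET they were 48480 CPM in MET 1+3, 36752 in MET 2, 42529 in MET 4, 32866 in MET 5 and 44986 in MET 6. TF of 3 CON samples stood above all MET samples and that of the other two lay within the MET range. The log2 fold change of TF was -0.33 (SE 0.21) with an edgeR FDR of 0.469.

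SLC40A1 (Entrez gene 527023, chromosome 2, 6716591 to 6740337, forward strand), whose product ferroportin is the target of hepcidin and the known iron exporter of mammalian cells, overlapped between the diets. SLC40A1 was measured at 175 CPM in CON 1+4, 271 in CON 2, 195 in CON 3, 240 in CON 5 and 177 in CON 6. In MET it was measured at 186 CPM in MET 1+3, 193 in MET 2, 113 in MET 4, 205 in MET 5 and 250 in MET 6. The highest value belonged to CON 2 and the lowest to MET 4. The log2 fold change of SLC40A1 was -0.16 (SE 0.20) with an edgeR FDR of 0.730. When samples were left out it ranged from -0.02 without MET 4 to -0.28 without MET 6.

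FTH1 (Entrez gene 281173, chromosome 29, 41172508 to 41175172, reverse strand) and FTL (Entrez gene 286861, chromosome 18, 55992910 to 55994744, forward strand) encode the heavy and light chains of ferritin, the iron store of the cell. Both have processed copies elsewhere in mammalian genomes, and reads that matched several places were not counted, so that their levels are uncertain. FTH1 lay at 1327 CPM in CON 1+4, 1593 in CON 2, 966 in CON 3, 1316 in CON 5 and 1141 in CON 6. It lay at 1254 CPM in MET 1+3, 1022 in MET 2, 1218 in MET 4, 1406 in MET 5 and 1433 in MET 6. Every MET sample fell inside the CON range. FTH1 had a log2 fold change of -0.002 (SE 0.17), whose sign changed with the scaling of the libraries (0.01 with library size only), and an edgeR FDR of 0.998.

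FTL lay at 2128 CPM in CON 1+4, 1972 in CON 2, 1566 in CON 3, 1670 in CON 5 and 1702 in CON 6. Its MET values were 2099 CPM in MET 1+3, 1954 in MET 2, 2225 in MET 4, 2033 in MET 5 and 2463 in MET 6. FTL of 3 CON samples lay below every MET sample, and CON 1+4 and CON 2 lay among the MET values. The FTL log2 fold change was 0.25 (SE 0.14), with an FDR of 0.407 in edgeR's test and an exact permutation p of 0.0556. FTL is a short gene with 872 exonic bases, and after a smooth trend on gene length was removed from each sample its log2 fold change was 0.09.

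**Figure D2:**
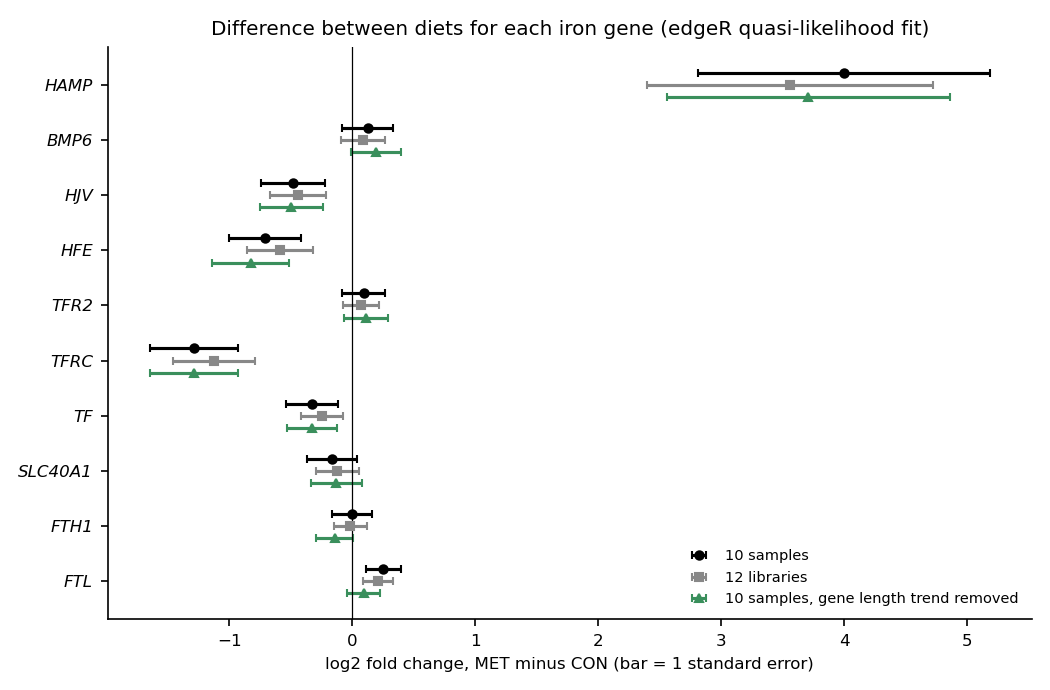
Log2 fold change of MET over CON for each of the 10 iron genes (horizontal axis, bars are 1 SE) over 10 samples, over 12 libraries and after the gene length trend was removed. HAMP lies near 4.00 with the widest bar, TFRC near -1.29 and HFE near -0.71, and the other genes lie within 0.50 of 0.

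Per kilobase of exon, TF was by far the most abundant of the 10 genes. The mean over the 10 samples was 18179 CPM per kilobase for TF, 2272 for FTL and 1375 for FTH1. HAMP followed with a mean of 65.2 and a median of only 17.4 CPM per kilobase. SLC40A1 had a mean of 59.3, HJV of 51.1 and TFR2 of 37.7 CPM per kilobase, TFRC of 6.44, HFE of 2.05 and BMP6 of 1.41. TF, FTL and FTH1 kept this order in all 10 samples with no overlap between neighbours, and so did TFR2 above TFRC. HAMP exceeded SLC40A1 in 3 of the 10 samples, SLC40A1 exceeded HJV in 7, HJV exceeded TFR2 in 8 and HFE exceeded BMP6 in 6, so that these neighbours did not differ beyond the spread between samples.

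The relations of these genes across samples were tested on log2 CPM by Pearson's r and Spearman's rho with permutation p, adjusted over 10 relations. HAMP went with ID1, a gene switched on by BMP and SMAD signaling. ID1 measured 34.6 CPM in CON 1+4, 44.1 in CON 2, 18.8 in CON 3, 36.9 in CON 5 and 27.8 in CON 6. The MET samples held 27.6 CPM of ID1 in MET 1+3, 83.9 in MET 2, 66.6 in MET 4, 58.4 in MET 5 and 84.8 in MET 6. The 4 samples with the most HAMP were the 4 with the most ID1, all from MET, and MET 1+3 was low in both genes.

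Pearson's r of HAMP and ID1 was 0.907 (n = 10, permutation p = 0.00079, adjusted 0.0079) and rho was 0.867 (permutation p = 0.00238, adjusted 0.0238). With the 2 samples farthest from the median of HAMP left out (CON 5 and MET 2), r was 0.957, and with the mean of each diet subtracted it was 0.852. The 4 samples with 6 or fewer HAMP reads form a low cluster. The other 6 samples, chosen by their HAMP values, are 2 from CON and 4 from MET. Among them r was 0.942, and 0.821 with diet means subtracted, given as a description without a test. ID1 had the highest positive r with HAMP of the 13242 genes tested, just above WDR45 (r = 0.903). By rho, WDR91 (0.952) and WDR45 (0.927) stood above ID1. With diet means subtracted WDR45 (r = 0.859) did too. The r of PM20D1, -0.926, was negative and larger in size. The log2 fold change of ID1 between the diets was 0.98 (SE 0.29), with an edgeR FDR of 0.181.

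The relation of HAMP and HFE was negative, with r = -0.809 (n = 10, permutation p = 0.00754, adjusted 0.0272) and rho = -0.782 (permutation p = 0.0104, adjusted 0.0521). With CON 5 and MET 2 left out, r was -0.903, and with diet means subtracted -0.684. Within the 6 samples above the low cluster, r was -0.635, and 0.130 with diet means subtracted. The adjusted permutation p was above 0.05 with the gene length trend removed (r = -0.790, adjusted 0.0512) and without CON 2, CON 3, CON 6 or MET 6 (r between -0.808 and -0.772, adjusted 0.0522 to 0.0915). TFRC and FTL were related by r = -0.786 (n = 10, permutation p = 0.00817, adjusted 0.0272) and rho = -0.648 (permutation p = 0.0493, adjusted 0.164). With CON 3 and MET 2 left out, r was -0.923, with diet means subtracted -0.585, and with the gene length trend removed -0.454, which was not past the threshold. This call was also lost without CON 2, CON 3, CON 5, CON 6 or MET 6 (r between -0.793 and -0.696, adjusted permutation p 0.0522 to 0.121). The relations of HAMP with BMP6 (r = 0.315), HJV (r = -0.07), TFR2 (r = 0.402), SMAD7 (r = 0.356) and SOCS3 (r = 0.425) did not pass, nor did TFRC with FTH1 (r = -0.195) or FTH1 with FTL (r = 0.524), with adjusted permutation p between 0.298 and 0.838. HAMP and TFRC, looked at after the values were seen, had r = -0.788 and rho = -0.685, and r = -0.643 with diet means subtracted, given without a test. Within the 6 samples above the low cluster, their r was -0.816, and -0.800 with diet means subtracted.

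**Figure D3:**
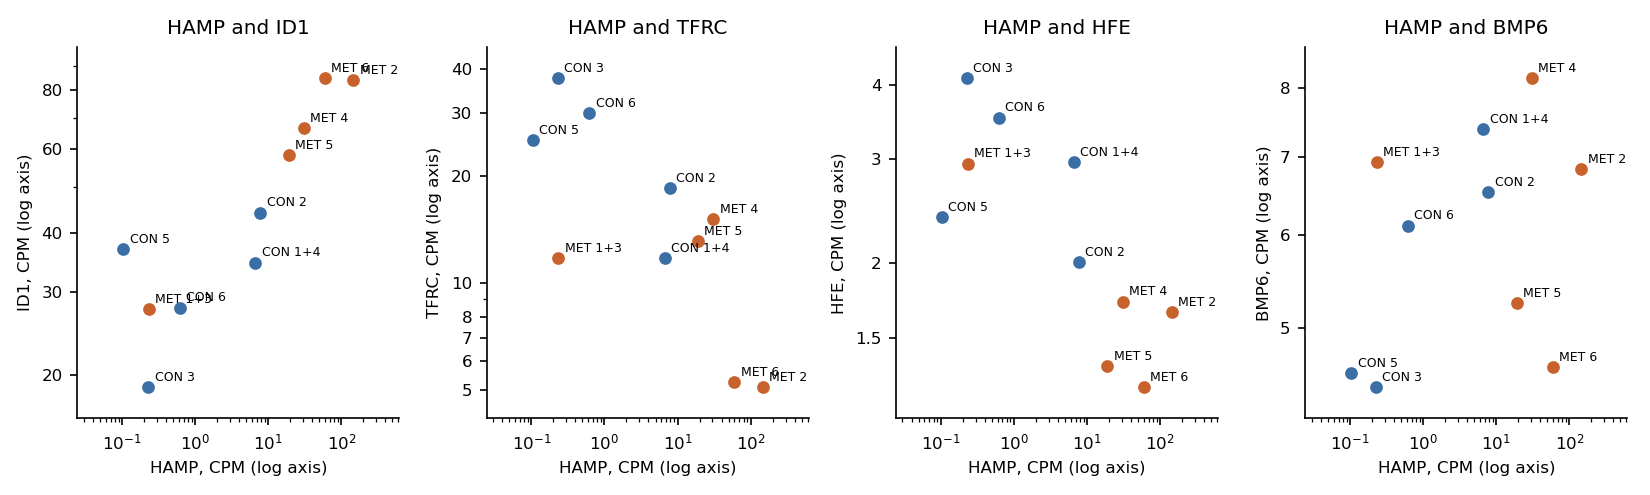
HAMP (horizontal, CPM, log axis) against ID1, TFRC, HFE and BMP6 (vertical, CPM, log axes) in the 10 samples, blue for CON and orange for MET. ID1 climbs with HAMP (r = 0.907), TFRC and HFE are lower where HAMP is high (r = -0.788 and -0.809), and BMP6 and HAMP had r = 0.315, which did not pass the test.

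Beside the 10 genes, 59 other genes of iron and heme handling were listed, of which 56 passed the filter. ERFE, the erythroid hormone that lowers hepcidin, the reductase STEAP2 and mitochondrial ferritin FTMT were too low. Of the 56, 28 had a log2 fold change above 0 and 28 below, with a median of 0.002. By edgeR none was called over the 10 samples, whereas DESeq2 called 5, beside 639 of all 13242 genes tested. In edgeR's test 11 had an unadjusted p of 0.05 or less, 2 of them higher and 9 lower in MET, beside 16.3% of all genes (1037 higher and 1128 lower). Over the 12 libraries 3 of the 56 were called, near the 4.41% of all genes, and all were lower in MET: FECH, which inserts iron into heme (log2 fold change -0.42, FDR 0.0719), CYBRD1, a ferric reductase (-0.59, FDR 0.0869), and BMPR2, a type II BMP receptor (-0.39, FDR 0.0849). The diets did not overlap over the 10 samples in 2 of the 56, FECH and CYBRD1, beside 3.72% of all genes, with FECH between 16.1 and 20.002 CPM in CON and between 11.02 and 15.2 CPM in MET.

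Among the 13 tested BMP receptors, SMADs and related genes, 4 were higher and 9 lower in MET by fold change. The target genes ID1 (0.98) and SMAD6 (0.37) stood highest, and the receptors BMPR1A (-0.29) and BMPR2 (-0.38) and the shared SMAD4 (-0.34) were among the lower ones, these 5 with an unadjusted p of 0.05 or less. SMAD7, a target gene too, was at 0.11 (SE 0.15) and did not pass that threshold. TMPRSS6, the protease that cleaves hemojuvelin, was at -0.04 (SE 0.15). In the interleukin 6 branch, the receptor chains IL6R (-0.58) and IL6ST (-0.35) passed the unadjusted threshold, while STAT3 was at 0.006 and SOCS3, its feedback inhibitor, at 0.84 (SE 0.44). Iron import and reduction had 3 genes above and 2 below 0, the chaperones and ferritin turnover 1 above and 2 below, the ferroxidases 1 each way, and mitochondrial iron and iron-sulfur clusters 4 above and 2 below. In these groups CYBRD1 alone passed the unadjusted threshold. All 3 iron regulatory genes lay below 0, IREB2 at -0.29 with an unadjusted p of 0.0251. Of the 11 genes of heme uptake, export and breakdown 10 lay above 0, none with an unadjusted p under 0.05, with HP, the hemoglobin scavenger haptoglobin, at 1.31 (SE 0.78). In heme synthesis 3 genes lay above 0 and 5 below, with ALAS1, the rate-limiting enzyme in liver, at -0.83 (SE 0.31, FDR 0.232 in edgeR's test).

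**Figure D4:**
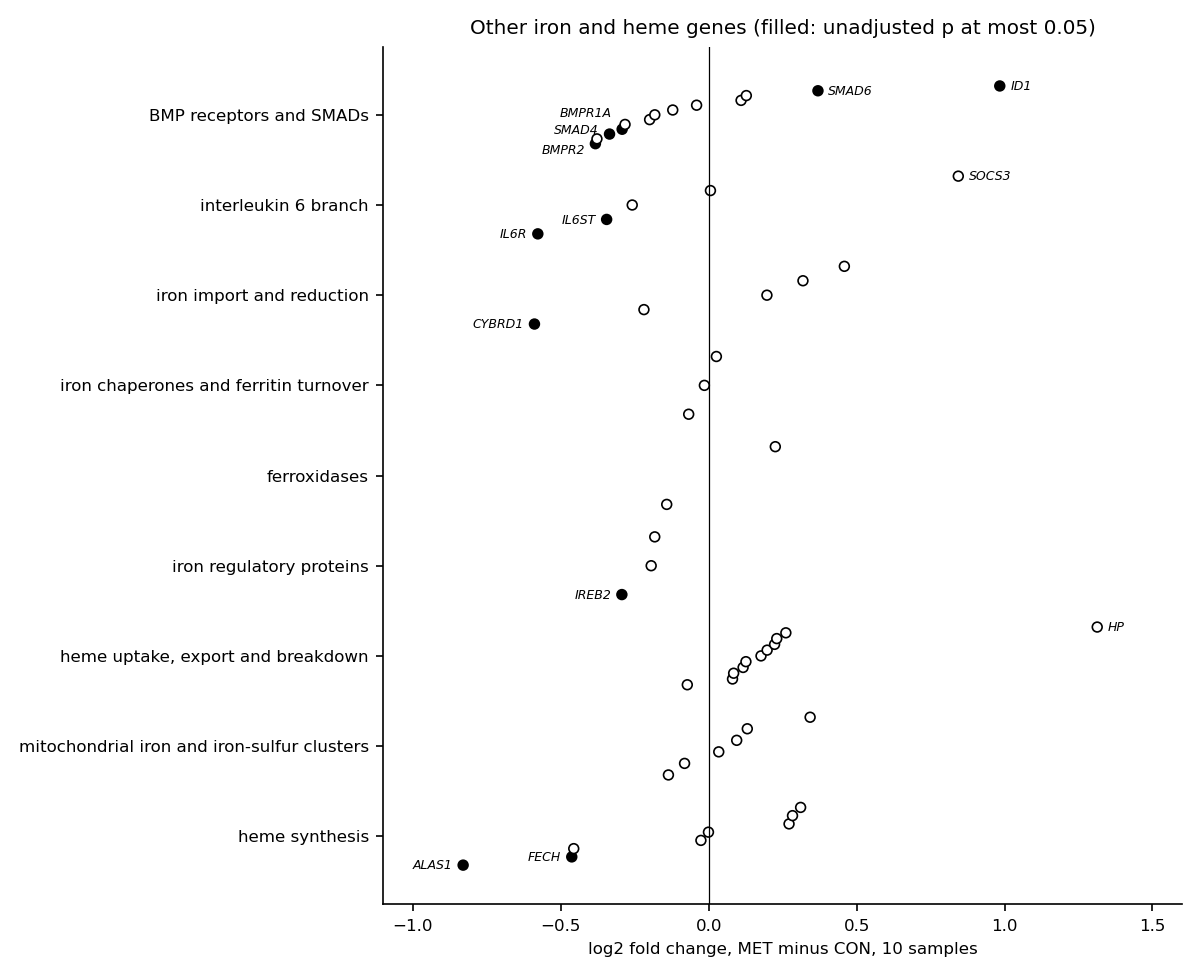
Log2 fold change of MET over CON over the 10 samples (horizontal axis) for the 56 other iron and heme genes tested, by group (vertical axis, points spread within a group), filled where the unadjusted p was at most 0.05. Of the 11 filled points 9 lie left of 0, and HP, ID1 and SOCS3 lie farthest right at 1.31, 0.98 and 0.84.

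The labelled tissue was checked by marker lists. All 8 hepatocyte markers were detected, with summed levels of 61379 to 100224 CPM in CON and 50694 to 80770 CPM in MET. All 8 had a log2 fold change below 0, with a median of -0.27 and TTR at -0.02 (SE 0.27). APOB among them was called lower over the 12 libraries (edgeR FDR 0.0859), where 4.41% of all genes were called, but not over the 10 samples (edgeR FDR 0.189). Its diets did not overlap over the 10 samples, beside 3.72% of all genes. All 8 Kupffer cell and macrophage markers, cells rich in ferroportin, lay above 0, with sums of 1136 to 1582 CPM in CON and 1334 to 1791 CPM in MET. C1QB among these was called higher over the 12 libraries (edgeR FDR 0.0855) but not over the 10 samples (edgeR FDR 0.213). In bulk tissue, fewer cells of a type and less RNA per cell cannot be told apart. Erythroid markers, of cells rich in TFRC, were at 7.61 to 963 CPM in CON and 57.2 to 460 CPM in MET, and 2 of the 9 passed the filter, with HBB, a hemoglobin chain, making up most of the sum. Their sum was lowest in CON 1+4, the CON sample lowest in TFRC, and highest in CON 2 with 963 CPM, the CON sample next lowest in TFRC. TFRC and this sum had r = 0.410 (n = 10, permutation p = 0.243, adjusted 0.487 over 4 relations chosen after the values were seen), and r = 0.493 with diet means subtracted.

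Acute-phase genes of hepatocytes had summed levels of 77312 to 125591 CPM in CON and 84721 to 192388 CPM in MET. The highest sums were those of MET 5 with 192388 and MET 4 with 146310 CPM, whereas MET 2 and MET 6, highest in HAMP, had 87047 and 84721 CPM. Within CON, the samples highest in HAMP also had the highest sums, 121083 CPM in CON 1+4 and 125591 CPM in CON 2. HAMP and the acute-phase sum were related by r = 0.279 (permutation p = 0.436, adjusted 0.582). The relation of SLC40A1 with the macrophage sum was r = 0.07 (permutation p = 0.852, adjusted 0.852), and that of BMP6 with the endothelial sum r = -0.633 (permutation p = 0.0495, adjusted 0.198). Neutrophil markers were highest in MET 4 with 142 CPM, and all 3 had a log2 fold change above 0 (median 1.26). All 6 markers of stellate cells and fibroblasts (median -0.35) and the 3 cholangiocyte markers tested (median -0.38) lay below 0. The part of any of these cell types in the values of the iron genes was not tested further.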

How the data were processed

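The authors trimmed the reads, aligned them with STAR 2.5.3a to UMD 3.1.1, a bovine assembly, and deposited raw counts of reads per RefSeq gene from featureCounts (Subread 1.5.2). Counting was stranded, and reads matching several places or several genes were left out. No exon of the 10 genes overlaps another gene on its strand. Symbols came from a RefSeq gene table matched by Entrez ID (25105 of 30336). The members and gene lists were chosen with earlier results of these data known.

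From the counts, CPM were computed after TMM scaling (edgeR 4.0.16, R 4.3.3). The default filter of edgeR was used (minimum count 10, minimum total 15). A quasi-likelihood model with diet alone was fitted in edgeR, with Benjamini-Hochberg adjustment over all genes and an FDR threshold of 0.10. The SE is the log2 fold change divided by the root of the test's F. Permutation tests were two-sided, used log2 CPM (prior count 2), and were exact over all arrangements of the samples and run with 100000 resamples for the 10-sample correlations. By rule, all 10 members were named, the other iron genes with an unadjusted p of 0.05 or less, the 3 with the largest change, and the 5 genes most like and 3 most opposite to HAMP. TMPRSS6, STAT3, LBP, single markers and the genes below the filter were named after their values were seen. DESeq2 1.42.0 and limma 3.58.1 (voom) were alternatives. The steps were tested on simulated data. Replicate numbers did not pair the libraries: deviations of same-numbered libraries correlated by -0.19 to 0.148.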

Additional observations from a re-analysis of the deposited data

How the results depend on the processing

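The member fold changes and the counts of genes called were recomputed under 25 alternatives, 14 of which left out a library or a sample, and each relation under 12. The number of genes called over all genes, 0 over the 10 samples, was 583 over the 12 libraries and 639 with DESeq2, and leaving out single samples gave 0 to 39, with 39 without MET replicates 1 and 3. With the replicate block on the 12 libraries 6 genes were called, none of them an iron member, and the replicate numbers did not pair the libraries. Voom and robust estimation called 0 genes, with 2128 and 2133 genes at an unadjusted p of 0.05 or less. Iron members called were 0 in 24 of the alternatives and 2 with DESeq2 (HAMP and TFRC). DESeq2 gave HFE no adjusted p, and with a minimum count of 50 HFE was not tested. Other iron genes called were 3 of the 56 over the 12 libraries, beside 583 of all 13212 genes tested. With DESeq2 they were 5, beside 639 of all 13242 genes tested. Leaving out samples gave 0 to 1, with 1 without MET replicates 1 and 3, where 39 of 13350 genes were called.

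HAMP, BMP6, HJV, HFE, TFRC, TF, SLC40A1 and FTL kept their direction under every alternative that gave a value. HAMP ranged from 3.09 without MET replicate 2 to 4.62 without CON replicates 1 and 4. With the gene length trend removed HAMP was at 3.71 (edgeR FDR 0.237). TFR2 ranged from -0.0037 to 0.25 when samples were left out, the lowest without MET replicate 5. The sign of FTH1 turned with library size only (0.0143), without a filter (0.0073), with voom (0.0089) and with the 10 most counted genes kept out of the library sizes (0.0005). Leave-outs of FTH1 gave -0.0857 to 0.091, and removal of the gene length trend gave its lowest value, -0.143. Members whose diets did not overlap numbered 0 to 2 when samples were left out, TFRC without CON replicates 1 and 4 (5.95% of all genes tested) and HAMP and HFE without MET replicates 1 and 3 (6.87%), in each case the sample that had made them overlap. Of the 3 relations past the threshold, 1 remained (HAMP with ID1) with the gene length trend removed, and leave-outs gave 1 to 3, with 1 without CON replicate 2, 3 or 6 or MET replicate 6 and with TFRC and FTL lost without CON replicate 5. The causes were not tested. Depth limits HAMP in 4 samples and HFE in all of them.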

Other observations

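By Pearson's r on log2 CPM over the 10 samples, the tested genes most like HAMP were ID1 (r = 0.907), WDR45 (0.903), WDR91 (0.877), PPP1R7 (0.874) and YIF1A (0.872). The genes most opposite to it were PM20D1 (-0.926), CD22 (-0.906) and C2CD2 (-0.883). With diet means subtracted these correlations were 0.803 to 0.859 and -0.885 to -0.816. They are given as a description, without a test, and share the 4 samples with few HAMP reads. PM20D1 spanned 76.4 to 124 CPM, WDR45 18.7 to 29.8 CPM and ID1 18.8 to 84.8 CPM. Among the iron genes, IL6R (r = -0.798), TFRC (r = -0.788) and HFE (r = -0.809) ranked 53, 67 and 36 from the most negative of all 13242 genes tested, and FTL (r = 0.684) ranked 297 from the most positive.

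SOCS3 and the acute-phase genes HP and LBP were highest in MET 5 and MET 4. There HAMP was above every CON sample but below MET 2 and MET 6. SOCS3 reached 95.9 CPM in MET 5 and 51.3 CPM in MET 4, against 27.4 in MET 2 and 17.5 in MET 6. HP stood at 49737 CPM in MET 5 and 26554 in MET 4, and at 1603 CPM in MET 2, the lowest of the 10 samples and the one richest in HAMP. LBP stood at 2113 and 2430 CPM in MET 5 and MET 4 and between 373 and 727 CPM in the other 8 samples. Within CON the order was another one. CON 2 and CON 1+4, richest in HAMP there, had the most SOCS3 (41.3 and 25.8 CPM) and LBP (727 and 679 CPM) of CON. HP was highest of CON in CON 2 with 10930 CPM.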
